A study of Mus musculus with 6 samples.

Results

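The inflammatory and regulatory cytokine genes described here are Tnf, Il6, Il10, Il12b, Il27, Osm, Ptgs2, Tnfsf9, Csf1 and Il15, taken by symbol whatever their values. All 10 were found among the 24391 genes of the deposited count table, all 10 passed the filter on low counts that left 12710 genes for testing, and all 10 were listed among the 23284 genes of the deposited FPKM table. The RNA came from tumour-associated macrophages (TAMs, the macrophages found inside a tumour) sorted from colorectal tumours of BALB/C mice. CCL5-/- mice lacked the chemokine gene Ccl5, and WT mice carried it. The gate with high CD11b and low F4/80 (F4/80low) gave 2 CCL5-/- and 2 WT libraries with read counts. The gate with low CD11b and high F4/80 (F4/80hi) gave 1 library labelled CCL5-/- and 1 labelled WT, with FPKM (fragments scaled to transcript length and depth). No treatment and no age is given, and it is not stated if replicates are different mice or pools of mice, so the p-values speak only of variation among these libraries, possibly technical.

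Macrophages make cytokines that push inflammation up or down. Tumour necrosis factor (Tnf), interleukin 6 (Il6) and oncostatin M (Osm) are inflammatory signals that act on epithelial, stromal and immune cells, and Ptgs2 encodes the inducible cyclooxygenase that makes the precursor of prostaglandin E2. Il12b encodes the p40 subunit shared by interleukins 12 and 23, Il27 encodes the p28 subunit of interleukin 27, Il15 supports NK cells and memory T cells, and Tnfsf9 encodes the ligand of the T cell costimulatory receptor 4-1BB. Interleukin 10 (Il10) dampens macrophage activation, and Csf1 encodes the growth factor on which macrophages depend.

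Promoter sequences are shown for Tnf and Il12b, which had lower levels in CCL5-/- than in WT in both replicate numbers, and for Il6 and Ptgs2, which differed between replicate numbers in opposite directions. They are the 250 bases before the transcription start in RefSeq, build GRCm38.p6, which held a promoter for 5 of the 10 genes, and they are reference sequence and not read from these mice. Capitals mark matches on either strand to GGGANNTTC (a form of NF-kB site), TGANTCA (a form of AP-1 site), TTGCNNAA (a form of C/EBP site), GAAANNGAA (part of an interferon response element) or TATAAA (a core promoter box). No matches of these motifs overlapped each other.
Tnf promoter, chr17:35202008-35202257, minus strand: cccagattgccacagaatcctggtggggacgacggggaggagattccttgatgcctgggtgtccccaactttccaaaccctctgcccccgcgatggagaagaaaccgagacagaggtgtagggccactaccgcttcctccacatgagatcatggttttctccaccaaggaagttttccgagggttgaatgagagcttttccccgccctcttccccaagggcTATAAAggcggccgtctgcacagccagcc
Il12b promoter, chr11:44399813-44400062, plus strand: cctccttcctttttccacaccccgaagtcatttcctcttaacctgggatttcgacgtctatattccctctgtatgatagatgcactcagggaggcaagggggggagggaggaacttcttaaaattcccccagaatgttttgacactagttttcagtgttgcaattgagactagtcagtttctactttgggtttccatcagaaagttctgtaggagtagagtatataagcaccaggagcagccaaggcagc
Il6 promoter, chr5:30012864-30013113, plus strand: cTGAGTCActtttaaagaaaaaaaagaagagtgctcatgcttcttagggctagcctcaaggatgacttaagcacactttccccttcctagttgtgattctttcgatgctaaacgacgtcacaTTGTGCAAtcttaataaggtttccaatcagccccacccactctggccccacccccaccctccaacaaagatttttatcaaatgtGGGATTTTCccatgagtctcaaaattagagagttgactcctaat
Ptgs2 promoter, chr1:150099781-150100030, plus strand: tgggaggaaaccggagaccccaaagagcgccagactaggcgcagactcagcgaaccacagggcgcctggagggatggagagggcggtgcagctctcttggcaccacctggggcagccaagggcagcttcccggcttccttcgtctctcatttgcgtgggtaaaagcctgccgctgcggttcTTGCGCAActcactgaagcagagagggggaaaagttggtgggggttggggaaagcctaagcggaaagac
GGGANNTTC was found in Il6 and Csf1 of the 5, against 3.23% of 32851 promoters of the same length. TGANTCA was found in Il6 alone of the 5 (6.75% of all promoters), TTGCNNAA in Il6 and Ptgs2 (9.56%), TATAAA in Tnf alone (12.4%) and GAAANNGAA in 0 of the 5 (7.13%). The Il12b window held none of these letters. A match is a description of the sequence and not a binding site.

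In genome order, Il10 lies on chromosome 1 (131019845 to 131024974) and Ptgs2 further along it (150100031 to 150108227). Csf1 lies on chromosome 3, Il6 on chromosome 5, Il27 on chromosome 7 and Il15 on chromosome 8. Osm (4236420 to 4241026) and Il12b (44400063 to 44414033) are on chromosome 11, which also carries the targeted Ccl5 (83525778 to 83530518), and Tnf and Tnfsf9 are both on chromosome 17. Coordinates are those of GENCODE M21 on GRCm38, and each gene overlapped its locus in the deposited FPKM table.

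Total counts of the F4/80low libraries were 10494542 and 19073767 in CCL5-/- replicates 1 and 2, against 9280635 and 22411342 in WT replicates 1 and 2. The ribosomal RNA precursor Rn45s took 50.0% of counts in CCL5-/- replicate 1 and 58.4% in WT replicate 1, against 1.38% and 0.844% in the CCL5-/- and WT replicates 2. Ccl5 had 35 and 82 reads in CCL5-/- and 255 and 3976 reads in WT. The F4/80hi libraries were not independent of replicate 1 of F4/80low. Their FPKM ratio, with the genotype labels crossed, predicted how the reads of 6677 genes split between CCL5-/- and WT replicate 1 with a median chi-square of 0.335, below the 0.455 of independent reads. With the labels as given the median was 5.33. They are therefore counted as the same 2 libraries, and which gate replicate 1 came from is not settled. Macrophage and monocyte markers summed to 5340 and 4802 CPM (reads scaled to library size, with TMM factors) in CCL5-/- and to 3988 and 7739 CPM in WT, with none of the 14 markers at 0.

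**Figure D1:**
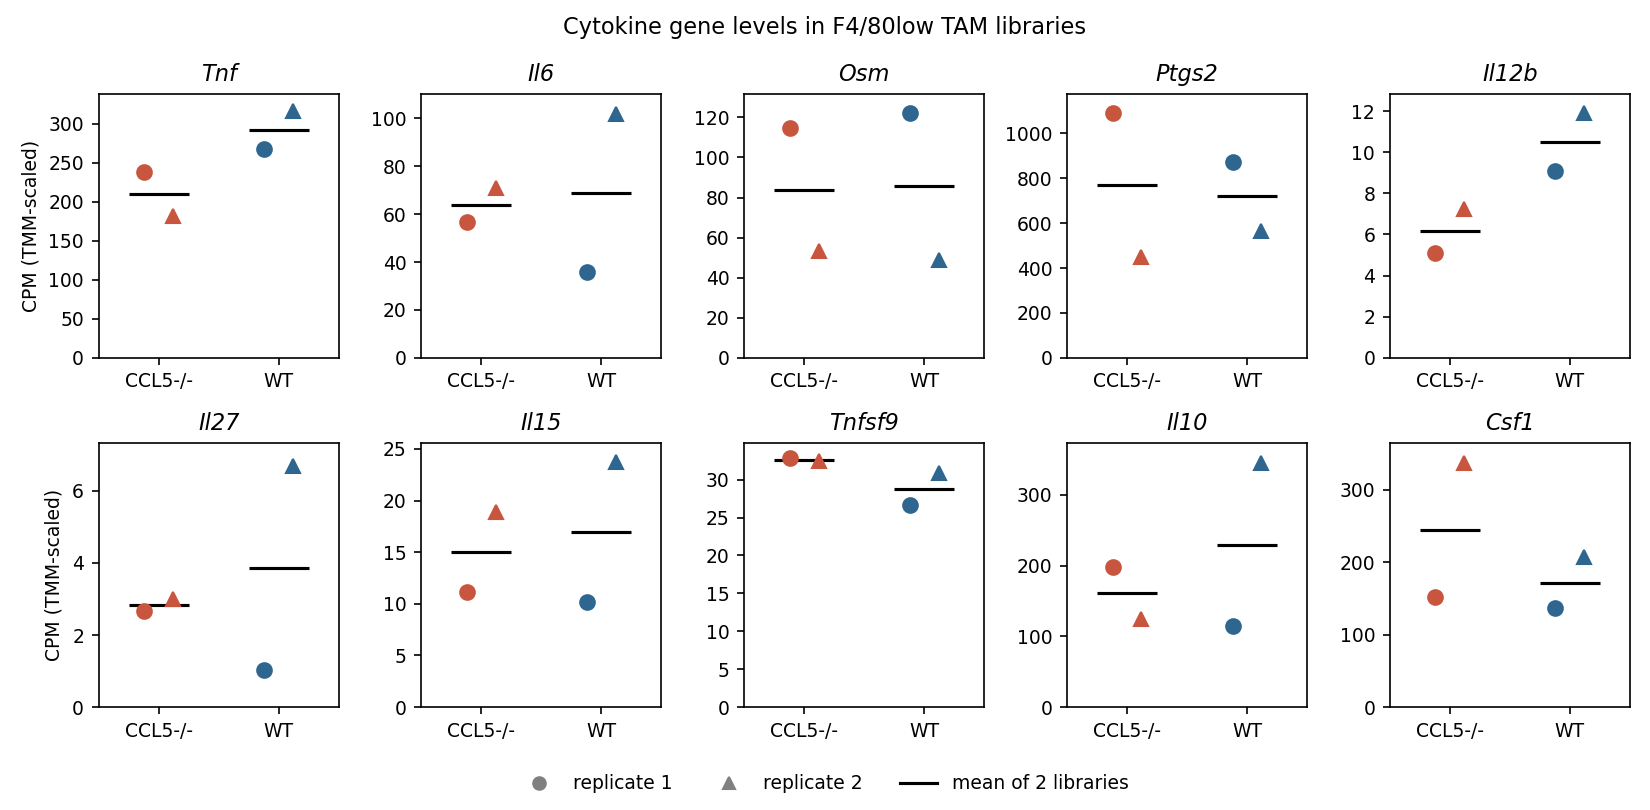
Level of each gene in CPM (TMM-scaled, axes from 0) in the 4 F4/80low libraries, CCL5-/- in red and WT in blue, with circles for replicate 1, triangles for replicate 2 and a black line at the mean of 2 libraries. The groups did not overlap for Tnf and Il12b (CCL5-/- lower, as in 8.24% of all genes tested) and Tnfsf9 (CCL5-/- higher, as in 8.36%). Osm and Ptgs2 were lower in both replicates 2 than in both replicates 1, and Il6, Il27, Csf1 and Il15 were higher. Replicate numbers did not overlap for 68.2% of all genes tested.

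The first question was which of the cytokine genes differed between CCL5-/- and WT TAMs in F4/80low. No gene of the 10 passed. In edgeR's quasi-likelihood test with Benjamini-Hochberg adjustment, 0 of 10 had an adjusted p under 0.05 and 0 of 10 an unadjusted p under 0.05. Over all genes 0 of 12710 passed, which is 0% called, and 41 (0.323%) had an unadjusted p under 0.05. The deleted gene Ccl5, at a log2 change of -4.64 (SE 0.69, unadjusted p = 7.62e-04 in edgeR), did not pass either. Not passing in this fit therefore does not show that a gene was unchanged. None of the 10 was called by limma-voom (0 genes over all) or by DESeq2 (1 gene over all). The median log2 change of the 10 genes was -0.14, against -0.01 over all genes tested, and their changes ran from -0.76 to 0.51. In bulk RNA, fewer cells of a type and less RNA per cell cannot be told apart. With 2 libraries against 2, an exact permutation test of a single value could not go below a two-sided p of 0.333.

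Among the inflammatory signals, Tnf was at 238 and 182 CPM in CCL5-/- replicates 1 and 2, against 268 and 316 CPM in WT replicates 1 and 2. Both CCL5-/- libraries lay below both WT libraries. The mean was 210 ± 39.8 CPM in CCL5-/- and 292 ± 34.1 CPM in WT (SD, n = 2 each), and the log2 change was -0.47 (SE 0.43, edgeR adjusted p = 1.0, 95% interval -1.54 to 0.59). Non-overlapping groups with CCL5-/- lower were found for 8.24% of all genes tested and for 2 of the 10, Tnf and Il12b. The 2 main TNF receptor genes were Tnfrsf1a, with a log2 change of 0.01, and Tnfrsf1b, with -0.36 (SE 0.41).

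Il6 was at 56.8 and 71.1 CPM in CCL5-/-, against 35.7 and 102 CPM in WT. The WT libraries were the lowest and the highest of the 4, so the groups overlapped completely. Its mean was 64.0 ± 10.1 CPM in CCL5-/- and 68.8 ± 46.7 CPM in WT (SD, n = 2 each), with a log2 change of -0.11 (SE 0.57).

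Osm, which shares the signalling subunit gp130 with interleukin 6, was at 115 and 53.1 CPM in CCL5-/- and at 122 and 49.0 CPM in WT. Within each replicate number the genotypes were nearly level, with log2 changes of -0.09 and 0.12 in the pairs. Over both, the change was -0.03 (SE 0.62, 95% interval -1.58 to 1.53), an interval that does not show equal levels. The gp130 gene Il6st had a log2 change of 0.40 (SE 0.41), and the oncostatin receptor gene Osmr was near the detection limit, with 14 and 23 reads in CCL5-/- and 6 and 48 reads in WT.

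Ptgs2, at the highest CPM of the 10 genes, had 1090 and 450 CPM in CCL5-/-, against 874 and 567 CPM in WT. The CCL5-/- libraries were the highest and the lowest of the 4. The mean was 770 ± 452 CPM in CCL5-/- and 721 ± 217 CPM in WT (SD, n = 2 each), a log2 change of 0.09 (SE 0.63). Ptges, which encodes a prostaglandin E synthase acting after Ptgs2, had 0.23 (SE 0.38).

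Il12b had few reads, with 44 and 197 in CCL5-/- and 53 and 362 in WT. These reads gave 5.11 and 7.23 CPM in CCL5-/-, against 9.10 and 11.9 CPM in WT. Both CCL5-/- libraries lay below both WT libraries, and Il12b had the lowest p of the 10 genes. It had a log2 change of -0.76 (SE 0.42, unadjusted p = 0.122 and adjusted p = 1.0 in edgeR), and its p ranked 206 among the 12710 genes tested. Of the subunits that pair with p40, Il23a had a log2 change of 0.08 (SE 0.37). Il12a had -1.42 (SE 0.93) on 12 and 33 reads in CCL5-/- and 36 and 33 reads in WT, so that WT replicate 1 alone stood apart.

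The lowest reads of all were those of Il27, with 23 and 82 in CCL5-/- and 6 and 204 in WT. These gave 2.67 and 3.01 CPM in CCL5-/-, against 1.03 and 6.71 CPM in WT, where the 6 reads of replicate 1 allow 0.378 to 2.24 CPM (exact Poisson 95% interval, counting error only). The WT libraries again were the lowest and the highest. Its log2 change was -0.50 (SE 0.85), and Ebi3, the subunit that pairs with p28, had -0.47 (SE 0.56).

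Il15 was at 11.2 and 18.9 CPM in CCL5-/-, against 10.1 and 23.7 CPM in WT. The genotypes overlapped, and the 2 replicates 2 were both above the 2 replicates 1. Its log2 change was -0.18 (SE 0.54), and Il15ra, which presents interleukin 15 to other cells, had -0.23 (SE 0.55).

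Tnfsf9 varied least, with 32.9 and 32.4 CPM in CCL5-/-, against 26.6 and 30.8 CPM in WT. Both CCL5-/- libraries were above both WT libraries, which also held for 8.36% of all genes tested and for Tnfsf9 alone of the 10. By counting error, the exact Poisson 95% intervals of CCL5-/- replicate 2 (30.3 to 34.6 CPM) and WT replicate 2 (28.9 to 32.9 CPM) overlapped. The log2 change was 0.18 (SE 0.34, edgeR adjusted p = 1.0, 95% interval -0.67 to 1.03), and the gene of its receptor, Tnfrsf9, had 0.06 (SE 0.42).

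For the regulatory genes, Il10 was at 198 and 124 CPM in CCL5-/-, against 114 and 344 CPM in WT. Replicate 1 was higher in CCL5-/- and replicate 2 higher in WT. The mean was 161 ± 52.3 CPM in CCL5-/- and 229 ± 163 CPM in WT (SD, n = 2 each), with a log2 change of -0.51 (SE 0.64). Il10ra, the ligand-binding receptor chain, had -0.57 (SE 0.73).

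Csf1 was at 152 and 338 CPM in CCL5-/-, against 137 and 207 CPM in WT. In each replicate number CCL5-/- was above WT, but CCL5-/- replicate 1 lay between the WT libraries. The mean was 245 ± 131 CPM in CCL5-/- and 172 ± 49.5 CPM in WT (SD, n = 2 each), a log2 change of 0.51 (SE 0.55, edgeR adjusted p = 1.0). Its receptor gene Csf1r had -0.03 (SE 0.45).

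**Figure D2:**
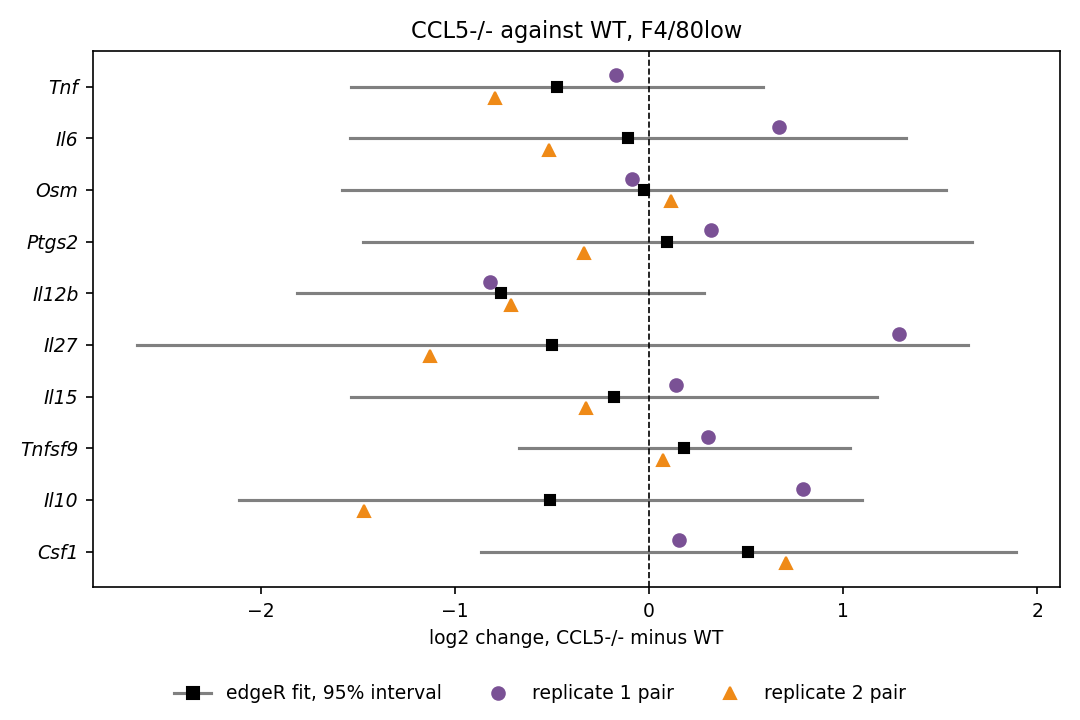
Log2 change of each gene, CCL5-/- minus WT, in F4/80low, with black squares and grey lines for the edgeR fit and its 95% interval, purple circles for the replicate 1 pair and orange triangles for the replicate 2 pair. Every interval crosses 0, and the pairs lie on opposite sides of 0 for Il6, Osm, Ptgs2, Il27, Il15 and Il10.

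The authors' deposited table, made from the same counts, called none of the 10 either. It gives adjusted p-values of 1.0 for each of them and log2 changes from -0.34 for Il12b (SE 0.28) to 0.26 for Csf1 (SE 0.28). Ccl5 alone is below 0.05 in that table. Each of the 10 log2 changes there is smaller in size than in the edgeR fit here, and Ccl5 has -1.68 there against -4.64 here. The sizes from these fits are therefore not directly comparable.

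Because ribosomal RNA split the libraries by replicate number, the change was also taken within each same-numbered pair (log2 CPM with a prior count of 2). In the replicate 1 pair the log2 changes were 0.80 for Il10, 0.67 for Il6, 1.29 for Il27, 0.32 for Ptgs2 and 0.14 for Il15. In the replicate 2 pair the same 5 genes were at -1.47, -0.52, -1.13, -0.33 and -0.33, so each had turned to lower levels in CCL5-/-. Genes higher in the first pair and lower in the second made up 25.8% of all genes tested. Tnf (-0.17 and -0.80) and Il12b (-0.82 and -0.71) were lower in CCL5-/- in both pairs, as were 26.5% of all genes. Tnfsf9 (0.30 and 0.07) and Csf1 (0.16 and 0.71) were higher in both, as were 24.8%.

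The pairs were furthest apart for Il27, by 2.41 on the log2 scale, and for Il10, by 2.26. Gaps of at least that size were found in 1.67% and 2.01% of the genes tested. Il12b had the smallest gap of the 10, at 0.11, and 85.1% of genes had one at least as large. With 1 library per genotype and replicate number, the difference between the pairs could not be tested. WT replicate 2 held the highest value of Il6, Il10, Il27 and Il15. Without it the log2 changes were 0.84 for Il6, 0.50 for Il10, 1.46 for Il27 and 0.57 for Il15, all opposite in sign to the values from 4 libraries. Without CCL5-/- replicate 2, Csf1 was at -0.17 and Osm at 0.43. Without CCL5-/- replicate 1, Il6 was at 0.09, Il15 at 0.19 and Ptgs2 at -0.63, and without WT replicate 2 Ptgs2 was at -0.19. Osm was at 0.78 without WT replicate 1.

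Summed markers of NK and T cells moved along with this pattern. The 8 NK cell markers summed to 176 and 169 CPM in CCL5-/-, against 98.1 and 403 CPM in WT, and the 9 T cell markers to 79.0 and 49.5 CPM in CCL5-/-, against 52.9 and 102 CPM in WT. None of these markers was at 0. Both sums were thus higher in CCL5-/- in replicate 1 and higher in WT in replicate 2, as Il10, Il27 and Il6 were. Each NK cell marker, and each T cell marker but Cd4 (-0.36 and -0.04 in the pairs), had that order too, as had 25.8% of all genes tested. Ifng, made chiefly by NK and T cells, was at 1.86 and 4.19 CPM in CCL5-/-, against 1.72 and 10.7 CPM in WT. Ltb, the other lymphocyte cytokine gene with enough reads, did not follow this order. It was at 9.53 and 16.3 CPM in CCL5-/-, against 19.9 and 35.1 CPM in WT, and so was lower in CCL5-/- in both pairs. The 5 B cell markers, near the detection limit, summed to 0.814 and 1.25 CPM in CCL5-/-, against 0.859 and 2.20 CPM in WT. That sum was nearly level between genotypes in replicate 1 and lower in CCL5-/- in replicate 2. The only B cell marker tested, Cd79a, had log2 changes of 1.63 and -0.60 in the pairs. It had 2 and 19 reads in CCL5-/- and 0 and 34 reads in WT. The summed macrophage and monocyte markers given above were, as the NK and T cell sums, higher in CCL5-/- in replicate 1 and higher in WT in replicate 2. Lyz2 made up much of that sum, at 3159 and 3033 CPM in CCL5-/- and 2115 and 5351 CPM in WT. Of the 14 markers, 5 were lower in CCL5-/- in both pairs and 1, Mrc1, was higher in both. The part of such cells in the cytokine values was not tested.

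Summed markers of neutrophils, dendritic cells and endothelial cells had lower levels in CCL5-/- in both replicate numbers, as Tnf and Il12b had. The 13 neutrophil markers found in the table summed to 776 and 347 CPM in CCL5-/-, against 3786 and 600 CPM in WT, and 10 of the 11 tested were lower in CCL5-/- in both pairs. WT replicate 1, the library with the highest sum, was also the one with the most Il12a. The 7 dendritic cell markers summed to 46.6 and 55.6 CPM in CCL5-/-, against 73.2 and 66.9 CPM in WT, with none at 0. Of these, 4 of the 6 tested were lower in both pairs, while Cd209a was higher in both (0.77 and 0.35) and Siglech differed in sign between them (0.56 and -0.04). Ccr7 made up much of the dendritic cell sum, at 33.2 and 43.0 CPM in CCL5-/- and 56.9 and 50.0 CPM in WT. Clec9a, which was not tested, had 6 and 9 reads in CCL5-/- and 2 and 50 reads in WT. The 6 endothelial markers summed to 14.4 and 10.5 CPM in CCL5-/-, against 23.5 and 14.8 CPM in WT, and 3 of the 5 tested were lower in both pairs. The 8 fibroblast markers did not follow as a sum, with 711 and 1066 CPM in CCL5-/- against 916 and 916 CPM in WT. Of the 8 only 2, Dcn (-1.70 and -1.30) and Mgp (-3.98 and -0.38), were lower in both pairs. Col1a2 was higher in both (0.05 and 0.63), and the rest differed in sign between the pairs. These shares stand against 26.5% of all genes tested, and no marker of these lists passed in edgeR without the replicate number in the fit. With the replicate number as a block, Dcn (adjusted p = 0.0237) and the neutrophil marker Camp (adjusted p = 0.0275) were called lower in CCL5-/- by edgeR. Dendritic cells also make p40. The part of any of these cells in the Tnf, Il12b and Il12a values was not tested.

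**Figure D3:**
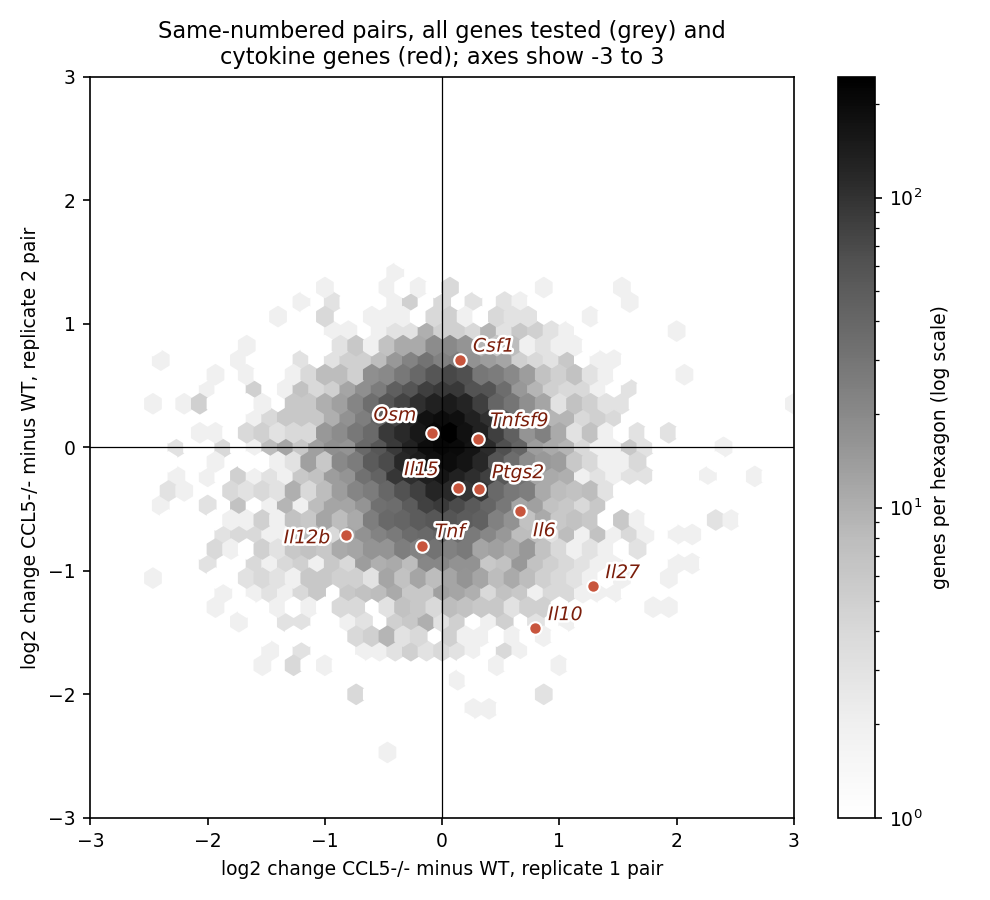
Log2 change CCL5-/- minus WT in the replicate 1 pair (x axis) and in the replicate 2 pair (y axis) for all 12710 genes tested, as hexagons shaded by the number of genes on a log scale, with the cytokine genes as red points. Il10 and Il27 sit low on the right, while Il12b and Tnf sit in the lower left quadrant, lower in CCL5-/- in both pairs.

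Genes around these cytokines were read from lists chosen for the pathway. Of 20 receptor genes 19 were tested and 0 passed in either direction in edgeR, with a median log2 change of -0.15. The pair medians were 0.12 in replicate 1 and -0.50 in replicate 2. By smallest p the first 4 were Il27ra (-0.67), Il6st (0.40), Tnfrsf1b (-0.36) and Il10ra (-0.57). Of 10 genes for partner subunits and prostaglandin steps 9 were tested and 0 passed, with a median of -0.01. They were led by Il12a (-1.42), Ebi3 (-0.47), Ptges (0.23) and Adam17 (-0.14), whose product releases TNF from the cell surface.

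Of 18 transcription factor genes all 18 were tested and 0 passed, with a median log2 change of -0.09. The myeloid factor Spi1 had -0.52 (SE 0.38), Irf8 -0.37, Irf5 -0.31 and Crem -0.53. Of 18 feedback regulators of NF-kB, JAK-STAT or MAPK signalling or of cytokine mRNA, 18 were tested and 0 passed, with a median of -0.11. Nfkbid had -0.36, Tnip3 -0.34, Dusp2 -0.28 and Nfkbiz -0.33. Among 20 other myeloid cytokine genes 19 were tested and 0 passed, with a median of -0.06. The type I interferon gene Ifnb1 had -1.13 (SE 0.58), Tnfsf13b -1.18, Tnfsf14 -0.89 and Il34 -0.50. Ifnb1 was at 7.79 and 4.08 CPM in CCL5-/-, against 7.90 and 17.5 CPM in WT, so that WT replicate 2 alone was high. Of 12 lymphocyte cytokine genes only Ltb (-1.09, SE 0.48) and Ifng (-1.05, SE 0.91) had enough reads to be tested, and neither passed. Early response genes that rise during cell handling had a median of -0.14 over 12 tested, with 0 passing, and summed to 3870 and 4924 CPM in CCL5-/- and 4228 and 4805 CPM in WT, a sum in which members moved opposite ways between replicate numbers.

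The second comparison asked how far the cytokine genes followed the replicate number. With genotype in the fit, 5 of the 10 genes differed between replicate 2 and replicate 1 at an edgeR adjusted p under 0.05, namely 3 with higher and 2 with lower levels in replicate 2. Over all genes 4047 of 12710 (31.8%) passed, 13.9% with higher and 18% with lower levels. Replicate numbers did not overlap for 6 of the 10 genes (Il6, Il27, Csf1 and Il15 higher, Osm and Ptgs2 lower in replicate 2), against 68.2% of all genes, 34.2% higher and 34% lower. Osm fell to 53.1 CPM in CCL5-/- replicate 2 and 49.0 CPM in WT replicate 2, against 115 and 122 CPM in the CCL5-/- and WT replicates 1. Its log2 change was -1.21 (SE 0.22, adjusted p = 8.61e-04), with -1.11 within CCL5-/- and -1.31 within WT.

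Ptgs2 fell too, by 0.95 on the log2 scale (SE 0.27, adjusted p = 0.0147 in edgeR), with -1.28 within CCL5-/- and -0.62 within WT. Il15 rose, with a log2 change of 0.98 (SE 0.25, edgeR adjusted p = 0.00778), 0.75 within CCL5-/- and 1.22 within WT. Csf1 rose by 0.87 (SE 0.24, edgeR adjusted p = 0.0128), with 1.15 within CCL5-/- and 0.60 within WT. Il6 rose by 0.90 (SE 0.28, edgeR adjusted p = 0.0293), but most of this lay in WT, with 0.32 within CCL5-/- and 1.51 within WT. Leaving out either library of one genotype leaves the value of the other alone, so that without a WT library Il6 was at 0.33 to 0.36 and without a CCL5-/- library Ptgs2 was at -0.62 to -0.60.

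The other 5 genes did not pass. Il27 had a log2 change of 1.23 (SE 0.57, edgeR adjusted p = 0.12), with 0.17 within CCL5-/- and 2.58 within WT. Il10 had 0.45 (SE 0.70), with -0.67 within CCL5-/- and 1.59 within WT, so that the genotypes went opposite ways. Il12b had 0.44 (SE 0.29), Tnfsf9 0.09 (SE 0.22) and Tnf -0.07 (SE 0.25). The genotypes also went opposite ways for Tnf (-0.39 within CCL5-/- and 0.24 within WT) and, near 0, for Tnfsf9 (-0.02 and 0.21).

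**Figure D4:**
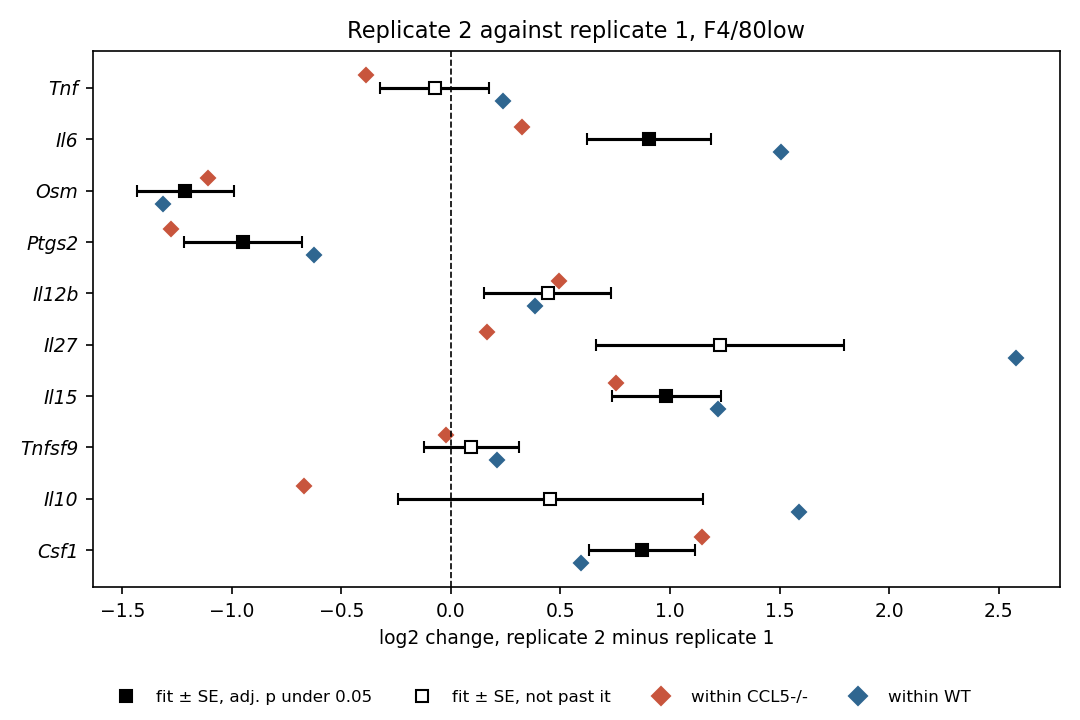
Log2 change of each gene, replicate 2 minus replicate 1, in F4/80low, with squares and bars for the edgeR fit ± SE (filled where the adjusted p was under 0.05) and diamonds for the change within CCL5-/- (red) and within WT (blue). Osm and Ptgs2 lie left of 0 in both genotypes, and Il6, Csf1, Il15, Il12b and Il27 lie right of 0 in both. Il10, Tnf and Tnfsf9 lie on either side.

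Neutrophil markers and ribosomal RNA moved with the replicate number as well. The same 13 neutrophil markers summed to 347 CPM in CCL5-/- replicate 2 and 600 CPM in WT replicate 2, against 776 and 3786 CPM in the CCL5-/- and WT replicates 1. Of these, Mpo was at 0 in CCL5-/- replicate 1 and Elane at 0 in CCL5-/- replicate 2. The CD11b gene Itgam had 144 and 180 CPM in the CCL5-/- and WT replicates 2, against 580 and 598 CPM in the replicates 1. Adgre1, the gene of the other gate marker, did not move with the replicate number. It had 35.3 and 51.8 CPM in the CCL5-/- and WT replicates 2, against 53.7 and 35.6 CPM in the replicates 1. Its log2 change was -0.04 (SE 0.27, edgeR adjusted p = 0.923), with -0.60 within CCL5-/- and 0.54 within WT. Among the 12 early response and handling genes, 3 were higher and 2 lower in replicate 2 at an edgeR adjusted p under 0.05. Over all genes tested, 13.9% were higher and 18% lower. The heat shock genes Hspa1b (log2 change 4.11), Dnajb1 (3.55) and Hspa1a (3.03) were higher, by more than any of the 10 cytokine genes, while Fos (-1.53) and Fosb (-1.14) were lower. The part of neutrophils, of ribosomal RNA, of cell handling and of the gate in these differences was not tested.

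Per kilobase of exon, which allows genes to be compared, the highest mean level belonged to Ptgs2, with of 163 ± 63.5 CPM per kb over the 4 F4/80low libraries (SD, n = 4). Tnf at 153 ± 34.2 and Il10 at 149 ± 81.0 CPM per kb followed, and the ranges of these 3 genes overlapped. Their order depended on the library. Ptgs2 led in both replicates 1, Tnf was above it in both replicates 2 (111 against 98.3 CPM per kb in CCL5-/- and 193 against 124 CPM per kb in WT), and Il10 led in WT replicate 2 at 263 CPM per kb. Below a gap came Csf1 (39.5 ± 17.3), Osm (37.3 ± 17.2), Il6 (27.3 ± 11.4) and Tnfsf9 (23.8 ± 2.21 CPM per kb), each overlapping the next. After another gap came Il15 (7.06 ± 2.86), Il12b (4.24 ± 1.46) and Il27 (3.29 ± 2.35 CPM per kb), which also overlapped in this order.

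Likeness of profile was measured as the root mean square difference of log2 CPM, centred on the 4 libraries. The closest pair among the 10 genes was Il6 with Il15 (0.20), followed by Osm with Ptgs2 (0.25) and Tnf with Il12b (0.35). Of all genes tested, the 3 nearest to Ptgs2 were Mlxipl (0.023), Ero1lb (0.025) and Fam110c (0.028), over 4 libraries that differ in ribosomal RNA and depth.

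The third comparison was between the F4/80hi libraries by genotype label, 1 against 1 and without a test. Since these 2 libraries are counted as the same as replicate 1 of F4/80low with the genotypes crossed, the values are a second reading of the same RNA and not a separate population. Of the 9 genes above 0 in both libraries, 0 differed by 2-fold or more on the log2(FPKM + 1) scale, against 2.95% of 11553 genes, 2.03% higher and 0.918% lower in the library labelled CCL5-/-. Ccl5 itself had 145 FPKM under the CCL5-/- label and 15.7 FPKM under the WT label, which goes against the labels. The sample titles also name the other genotype for each library, and under them every sign here would turn.

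By label, Il10 had 166 FPKM (CCL5-/-) against 272 FPKM (WT), a log2 change of -0.71. Il6 had 77.6 FPKM (labelled CCL5-/-) against 108 FPKM (labelled WT), a change of -0.47. Both were lower under the CCL5-/- label. Il12b went the other way, with 4.90 FPKM (labelled CCL5-/-) against 3.18 FPKM (labelled WT), a change of 0.50. So did Tnf, with 243 FPKM (labelled CCL5-/-) against 201 FPKM (labelled WT), a change of 0.27. Il27 was listed at 0 under the CCL5-/- label and at 1.5 FPKM under the WT label. The other 5 genes lay between -0.19 (Tnfsf9) and 0.19 (Il15). The authors' lower and upper bounds overlapped between the libraries for each of the 9 genes. Of the 9, 8 had the opposite sign to the replicate 1 pair of F4/80low, the exception being Il15, and so had 85.1% of 10597 shared genes.

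**Figure D5:**
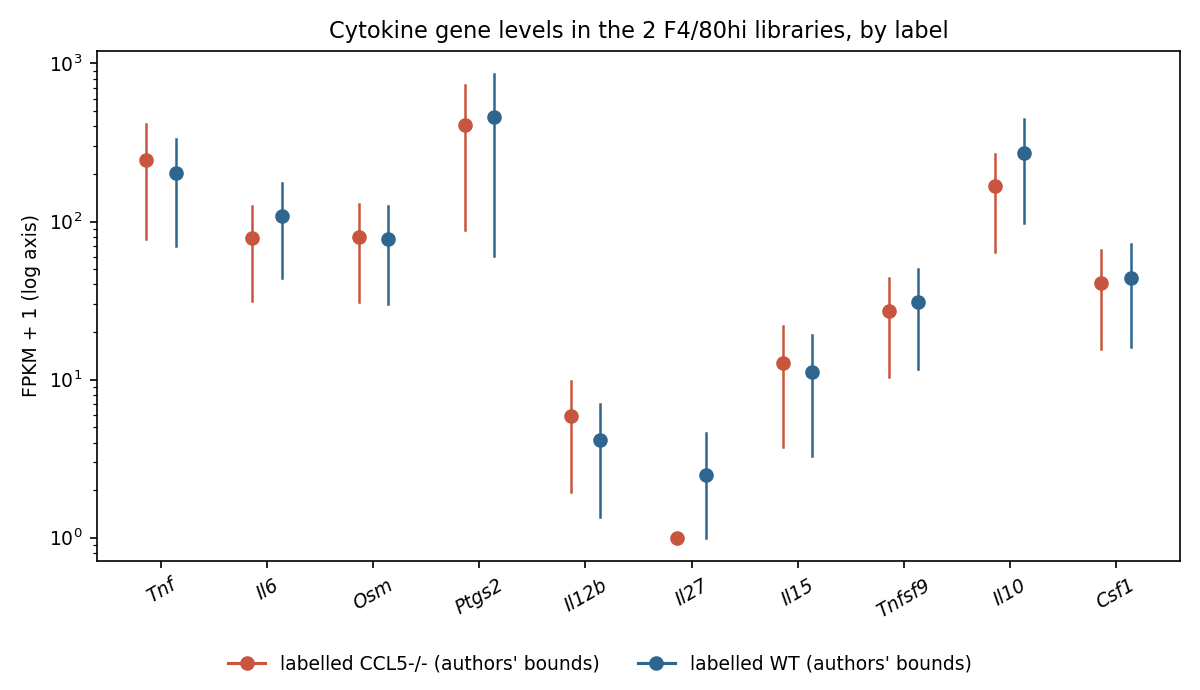
FPKM + 1 (log axis) of each gene in the 2 F4/80hi libraries, labelled CCL5-/- in red and labelled WT in blue, with points for the value and lines for the authors' lower and upper bounds. The bounds overlap for every gene above 0 in both libraries, and Il27 was listed at 0 in the library labelled CCL5-/-.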

How the data were processed

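Trizol RNA was sequenced from Illumina TruSeq libraries, per the labels' protocols. The authors deposited raw read counts per gene for F4/80low. They also deposited their comparison, whose normalised signal the authors made by dividing counts by 1 size factor per library. The log2 fold changes with their SE in it are the authors' own, per the file headers. The score in it is the authors' test statistic, per the file headers. Each p-value in it, raw or adjusted, was computed by the authors, per the file headers. For F4/80hi the authors deposited FPKM with bounds, and the depth is unknown. The submitters' processing notes name STAR and HTSeq, TopHat2 2.1.1 and Cufflinks 2.2.1, and DESeq2, among others. Which made which table, the build and the use of strand are not given in the sources used here, so overlapping or antisense genes cannot be separated.

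Groups follow the characteristics fields. The test was that of edgeR 4.0.16 under R 4.3.3 (filterByExpr, TMM, robust quasi-likelihood F test, two-sided, Benjamini-Hochberg over all genes tested). The SE is the size of the change divided by the square root of F. DESeq2 1.42.0, limma 3.58.1, RLE factors, other filters, a replicate block and leaving out libraries were tried. FPKM changes are log2((FPKM + 1)/(FPKM + 1)) over genes above 0 in both libraries and at 1 FPKM or more in either, a scale that understates changes of low genes. The 10 genes, all lists and the promoter motifs were chosen with earlier results of these data known. Named were all 10 genes, up to 4 per pathway list by smallest p, partner subunits and receptors, and the 3 nearest profiles to the gene with the highest CPM.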

Additional observations from a re-analysis of the deposited data

Results flagged for a closer look

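By label, 4 genes had the opposite sign in the F4/80hi libraries to both replicate pairs of F4/80low. The log2 changes, labelled CCL5-/- minus labelled WT, were 0.27 for Tnf, 0.50 for Il12b, -0.19 for Tnfsf9 and -0.11 for Csf1. Because the F4/80hi libraries are counted as the replicate 1 libraries with the genotypes crossed, a sign opposite to that pair was largely fixed beforehand. It was found in 85.1% of 10597 genes. The values are therefore no sign of a difference between the gates, and none was tested.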

How the results depend on the processing

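None of the 10 genes was called between CCL5-/- and WT under any of the 12 alternatives. Over all genes the count of 0 became 1 in DESeq2, and 0 to 4 when 1 library was left out. No source ties same-numbered libraries to one mouse or day, although their deviations from the group means correlated (0.728). With the replicate number as a block, edgeR called 10 genes, DESeq2 23 and limma-voom 31 (the last chosen after seeing the data). With the block Il12b had a log2 change of -0.76 (unadjusted p = 0.0181, edgeR adjusted p = 0.656). In that edgeR fit 745 of 12710 genes had an unadjusted p under 0.05, and of the 10 cytokine genes Il12b alone. Apart from leaving out a library, signs turned for changes near 0. With the block Il6 was at 0.048, 0.062 and 0.065 in edgeR, DESeq2 and limma-voom, Osm at 0.015, 0.017 and 0.012, and Ptgs2 at -0.0086 and -0.0063 in edgeR and DESeq2. Without the block Il6 was at 0.11 in limma-voom.

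Leaving out 1 library moved the CCL5-/- minus WT change of Il6 between -0.65 and 0.84, Il10 between -1.08 and 0.50, Il27 between -1.22 and 1.46, Il15 between -0.63 and 0.57, Osm between -0.63 and 0.78, Ptgs2 between -0.63 and 0.60, and Csf1 between -0.17 and 1.02. Tnf (-0.64 to -0.29), Il12b (-1.04 to -0.50) and Tnfsf9 (0.10 to 0.29) kept their sign. Leaving out a library also unbalances replicate numbers between genotypes. The cause of these moves was not tested.

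The 5 genes called between replicate numbers were called under each of the 5 alternatives that could be tested, and Il27 was called in addition without the filter on low counts (adjusted p = 0.0269). Tnf turned to 0.012 there. With 1 library left out no residual spread remained, so values alone were had, between -0.39 and 0.26 for Tnf, -0.67 and 1.61 for Il10, and -0.019 and 0.23 for Tnfsf9. Pseudocounts of 0.1 or 5 FPKM turned no F4/80hi sign. The reads of Il27 and Il12b in replicate 1 limit what could be detected there.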

Other observations

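Around the cytokine genes, other secreted factors also differed between replicate numbers. Of 19 other myeloid cytokine genes tested, 6 were higher and 1 lower in replicate 2 at an edgeR adjusted p under 0.05, against 13.9% and 18% of all genes. Il11, an interleukin 6 family cytokine picked here after its values were seen, was at 139 and 139 CPM in the CCL5-/- and WT replicates 2, against 12.6 and 12.02 CPM in the replicates 1. Its log2 change was 3.50 (SE 0.25, edgeR adjusted p = 3.18e-07). Lif rose by 1.18, Csf2 by 1.27 and Csf3 by 1.052 on the log2 scale, also named after their values were seen.

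Of 19 receptor genes tested, 0 were higher and 5 were lower in replicate 2, against 13.9% and 18% of all genes. Il10ra had a log2 change of -1.51, the interleukin 6 receptor gene Il6ra -1.15, Lifr -1.88, and the prostaglandin E2 receptor genes Ptger2 and Ptger4 -1.67 and -0.87. Of 18 transcription factor genes, 5 were higher and 4 lower in replicate 2, against the same 13.9% and 18%. Picked after their values were seen, the 5 NF-kB subunit genes had log2 changes of -1.69 for Rel, 1.06 for Relb, 0.83 for Rela, 0.75 for Nfkb2 and 0.51 for Nfkb1, and Nfkb1 did not pass (edgeR adjusted p = 0.107).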
